A study of Ovis aries with 2 samples.

Results

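The cells described here were macrophages recovered from a vascular graft, a class of 291 among the 924 graft barcodes that had at least 1000 unique molecular identifiers (UMIs, each standing for 1 captured transcript) and at most 20% mitochondrial UMIs. This was 31.5% of those barcodes (95% Clopper-Pearson interval 28.5 to 34.6%, counting error only). The graft library held 1229 barcodes in all and the series 12600. A barcode belonged to the class when C1QA, C1QB, AIF1, CSF1R, CTSS and CD163 together had at least 3 UMIs, and at least 2 times the UMIs of each of an endothelial, a smooth muscle and a T cell list. It also had to hold fewer than 2000 counts per 1000000 UMIs (CPM) of ACP5, CTSK and MMP9 together, which are genes of osteoclasts. These measured values chose the cells, so levels of the choosing genes are given as a description.

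The study profiled single cells of sheep (Ovis aries) by droplet sequencing, with 1 library from a cell-free tissue-engineered vessel labelled H2R5-ATEV and 1 from a native carotid artery, which the title calls an aorta. Both were explanted at 12 weeks from animals of 1 to 2 years, were perfused with digestion enzymes and are labelled as carotid artery by source. The labels give neither the number of animals nor what H2R5 stands for, and name no treatment, strain or genotype. With 1 library per tissue no difference below could be tested between animals, and every interval covers counting error only.

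Macrophages are phagocytes that arise from blood monocytes or persist in tissues, and that clear debris, take up lipid and present antigen. In the wall of a vessel they are found around implanted material, in atherosclerotic plaques and in the adventitia. Under the cytokines CSF1 and RANKL the same lineage can fuse into osteoclasts, cells that acidify and dissolve mineralised matrix with the vacuolar proton pump, the acid phosphatase ACP5 and the collagenolytic protease CTSK.

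The class was deeply sequenced. Members had a lowest depth of 1034 UMIs, a median of 27902 and a highest of 154273, with a median of 5293 genes and 2.45% mitochondrial UMIs. They held 28.1% of the UMIs of the graft barcodes within the UMI and mitochondrial limits. Median depth was 47175.5 UMIs in the 58 graft macrophages at or above the osteoclast-gene limit, 24600 in the 633 other graft barcodes, and 9165 in the 797 macrophages that the same rule found in the native artery. A barcode sequence was present in both libraries 7 times, and 1 of these was a member.

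Markers used in the choice describe the class and are no evidence of its identity. The rule kept them low, relative to their own lists, in the graft endothelial, smooth muscle and T cell sets. It required them in the native macrophages and in the graft macrophages at or above the osteoclast-gene limit. C1QA, which encodes a chain of the complement opsonin C1q, had 5471 CPM over the summed UMIs of members. By barcode its lowest value was 0, its median 5447 and its highest 25990 CPM, and 276 of 291 members had a UMI. Graft endothelial barcodes, with a median of 32124 UMIs, had 31.3 CPM, and at an equal 1000 UMIs C1QA was seen in 79.0% of members and 8.76% of endothelial barcodes. CD163, a scavenger receptor for haemoglobin bound to haptoglobin, had 346 CPM in members and 1.96 in endothelial barcodes. CSF1R, the CSF1 receptor that macrophages need to survive, had 348 CPM in members, 6.28 in endothelial and 37.6 in smooth muscle barcodes.

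2 further markers, both found in macrophages that handle lipid and not used in the choice, were present in part of the class. GPNMB, a membrane glycoprotein of lipid-laden macrophages, had 217 CPM, with a barcode median of 0 and a highest value of 2030, and was seen in 143 members. TREM2, a lipid-sensing receptor, had 239 CPM, with a barcode median of 44.6 and a highest value of 897, and was seen in 158 members. Neither gene was therefore a mark of all members, and the 10% of members with most GPNMB held 62.6% of its UMIs. Of the 6 given markers, at least 1 was detected in all but 3 members. C1QA, C1QB, CSF1R and CD163 among them were used in the choice, so this follows largely from the rule.

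**Figure D1:**
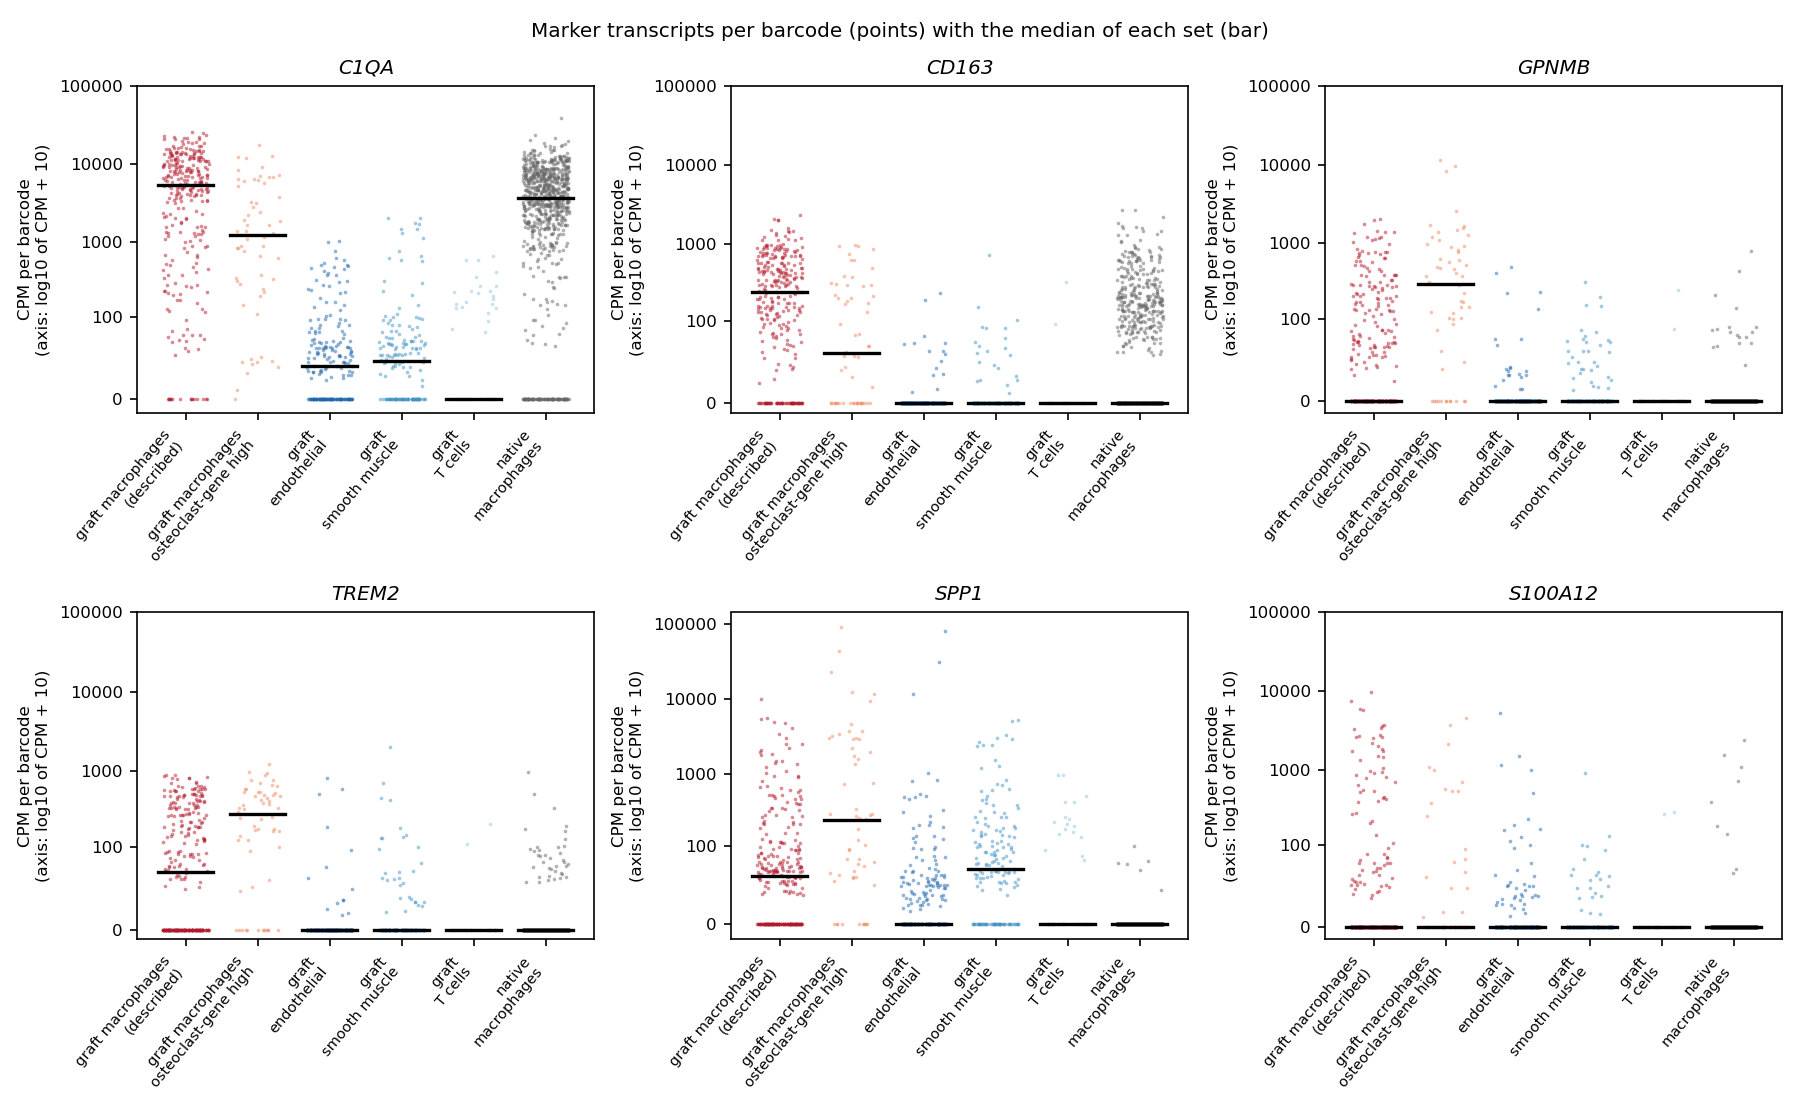
Level of C1QA, CD163, GPNMB, TREM2, SPP1 and S100A12 in each barcode of 6 sets of cells, in CPM on a log10 axis after adding 10, with 1 point per barcode and a bar at the median. C1QA sits high in most members and native macrophages (medians 5447 and 3685 CPM), whereas GPNMB, SPP1 and S100A12 are absent from many members and nearly absent from native macrophages.

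The limits of the rule did not fall in gaps. Members had a lowest value of 3, a median of 372 and a highest of 1590 UMIs of the 6 macrophage genes. Of them, 18 had 3 to 5 UMIs and 260 had 20 or more. Of the graft barcodes within the UMI and mitochondrial limits, 263 had 1 or 2, counted whether or not they met the other conditions. The requirement of 2 times each other list removed 241 of 590 candidate barcodes, of which 33 reached 1 to 2 times, while 7 members reached 2 to 3 times. The osteoclast genes ranged from 0 in 9 members to 1963 CPM, with a median of 659. Just below the limit, 32 members lay between 1500 and 2000 CPM, and just above it 12 barcodes lay between 2000 and 2500. ACP5 was still seen in 260 members and CTSK in 252, so the class was below a limit for these genes and not free of them.

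**Figure D2:**
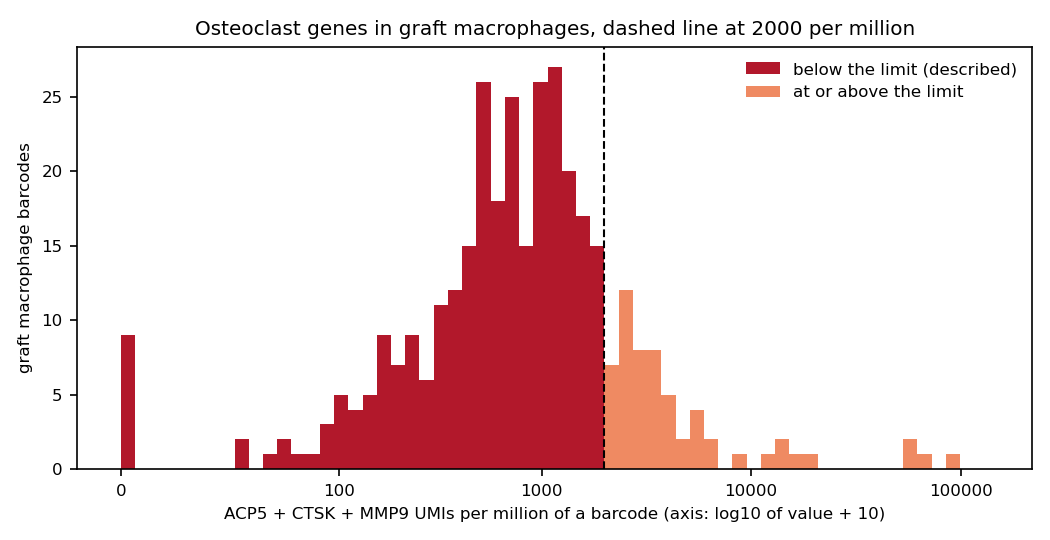
Number of graft macrophage barcodes (vertical axis) by the summed level of ACP5, CTSK and MMP9 in CPM (log10 axis after adding 10), with the limit of 2000 as a dashed line. The distribution runs on across the limit, with members up to 1963 and the other barcodes from 2014 CPM.

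Signs of other cells were present in a minority of members. The fibroblast list, of collagens, matrix proteoglycans and other genes such as PDGFRA, MFAP5 and SFRP2, summed to 1976 CPM in members. In 32 members, collagen and decorin UMIs were above 0.5 times the macrophage UMIs. At 1000 UMIs, 14.1% of members and 97.0% of graft smooth muscle barcodes had at least 2 UMIs of this list. In 15 members the 6 macrophage genes were below 1000 CPM. These 15 members had 351 CPM of CD52 and 274 CPM of SATB1, lymphocyte genes chosen after their values were seen, which had 12.2 and 11.9 CPM in the other members. CD79A, a chain of the B cell receptor, had 85.5 CPM in these 15 and 3.15 CPM in the others. Few barcodes carried these UMIs, 4 of the 15 for CD52, 4 for SATB1 and 3 for CD79A. The T cell genes CD2 and CD3E went the other way, at 4.28 CPM each in the 15 and at 70.1 and 14.1 CPM in the others. Both belong to the T cell list, which the rule kept low relative to the macrophage genes. The choice itself therefore limited CD2 and CD3E in the 15, and nothing is read from their direction. No C1QA UMI was found in 15 members.

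Of the lists for other leukocytes, the neutrophil list was the only one near 0. The neutrophil markers summed to 3.08 CPM, with ARG1, CD177 and MPO at 0 UMIs, which allows up to 0.298 CPM. The dendritic cell markers summed to 89.9 CPM, with CD1A at 0 UMIs and FLT3, a receptor of dendritic cell precursors, at 1.49 CPM. The T cell list summed to 87.7 CPM and was mostly CD2, at 68.5 CPM, with the rule itself limiting this list. The mast cell markers summed to 57.7 CPM with MS4A2 at 0 UMIs, the natural killer and cytotoxic markers to 34.3 CPM and the B and plasma cell markers to 28.9 CPM. For each of these 3 lists the median member was at 0 and the highest member far above it, at 20620, 6629 and 4971 CPM. The smooth muscle list summed to 123 CPM, and the endothelial list to 453 CPM. Of the endothelial sum, PECAM1, an adhesion molecule that leukocytes also carry, gave 420 CPM in 265 members. Their part in the results below was not tested, and the closing section gives how the counts below moved without the members that were high in fibroblast genes or low in macrophage genes.

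Against the other graft barcodes, which included 217 endothelial, 166 smooth muscle and 50 T cell barcodes and the 58 macrophages at or above the osteoclast-gene limit, the class held more transcript of antigen presentation, proinflammatory and phagocytic genes. Because the rule used this contrast, the values describe the class. Among 4531 genes with at least 50 CPM and 30 UMIs in the higher set, 790 were over 2-fold higher in members (17.4%) and 712 over 2-fold lower (15.7%). This count and the log2 ratios used CPM with 5 added to both sides, and the folds printed with an interval are ratios of CPM with nothing added.

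The gene with the highest ratio of CPM with 5 added was IL10, which encodes an anti-inflammatory cytokine. It had 102 CPM in members and 4.97 CPM in other graft barcodes, a 20.5-fold ratio (95% counting interval 17.0 to 24.8). IL10 was unevenly spread, with a UMI in 125 of 291 members and 77.2% of its UMIs in the top 10% of members. IL1A, an alarm cytokine, had 885 CPM in members and 88.9 CPM elsewhere in the graft, with a barcode lowest of 0, a median of 186 and a highest of 5841 CPM. CXCL8, the main neutrophil-attracting chemokine, had 2250 and 237 CPM, and its log2 ratio of 3.22 was 1.83 when each barcode had equal weight. NLRP3, the sensor of an inflammasome that matures interleukin 1, had 380 and 38.7 CPM.

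Antigen presentation genes stood out in the same way. CD74, the invariant chain that escorts MHC class II molecules, had 4656 CPM in members and 491 in other graft barcodes. Ovar-DRA, the sheep class II alpha chain, had 229 and 17.8 CPM. In the list of 10 class II genes, 8 were over 2-fold higher, with a median log2 ratio of 2.42 (all genes measured at 10 UMIs or more had a median of -0.02, with 7.55% higher and 9.24% lower). The remaining genes of the highest 12 were PLEK, a platelet and leukocyte signalling protein (1335 and 130 CPM, a log2 ratio of 3.31 that was 1.68 with equal weight for each barcode), PKIB, an inhibitor of protein kinase A (480 and 44.5 CPM), RETN, which encodes resistin (106 and 6.33 CPM), GABRG3, SLC39A8 and SLC16A10. SLC39A8, a zinc importer, reached 77.3 CPM with 88.8% of its UMIs in the top 10% of members, and GABRG3 was seen in 52 members.

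The phagocytic and Fc receptor list had 10 of 11 genes over 2-fold higher than in other graft barcodes. TLR2, a receptor for bacterial lipoproteins, had 1126 CPM in members and 155 elsewhere, and the integrin chain ITGAM had 214 and 38.7 CPM. Resident and reparative macrophage genes were over 2-fold higher in 12 of 16 and lower in 2, and lipid-handling genes were higher in 13 of 20 and lower in 2. Proinflammatory genes were higher in 11 of 17, lysosomal hydrolases in 12 of 19, and iron and haem genes in 6 of 11, with none lower. Glycolysis genes were higher in 1 of 15, a share near the background, with GAPDH at 615 and 576 CPM.

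The genes of lowest ratio were those of vessel wall cells. HMCN1, a basement membrane protein, had 16.6 CPM in members, 1106 in the other barcodes and 2512 in graft endothelial barcodes. NOS3, the endothelial nitric oxide synthase, had 4.96 and 318 CPM. TAGLN, an actin-binding protein of smooth muscle, had 60.5 CPM against 4200 CPM in graft smooth muscle. SELP, the adhesion receptor P-selectin, had 5.46 and 279 CPM. The other 8 were CRIM1, ADGRL4, SAMD12, IGFBP3, ANKRD1, BMPER, SLC7A2 and ADAMTS1, which had between 2.78 CPM (IGFBP3) and 31.0 CPM (ANKRD1) in members.

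**Figure D3:**
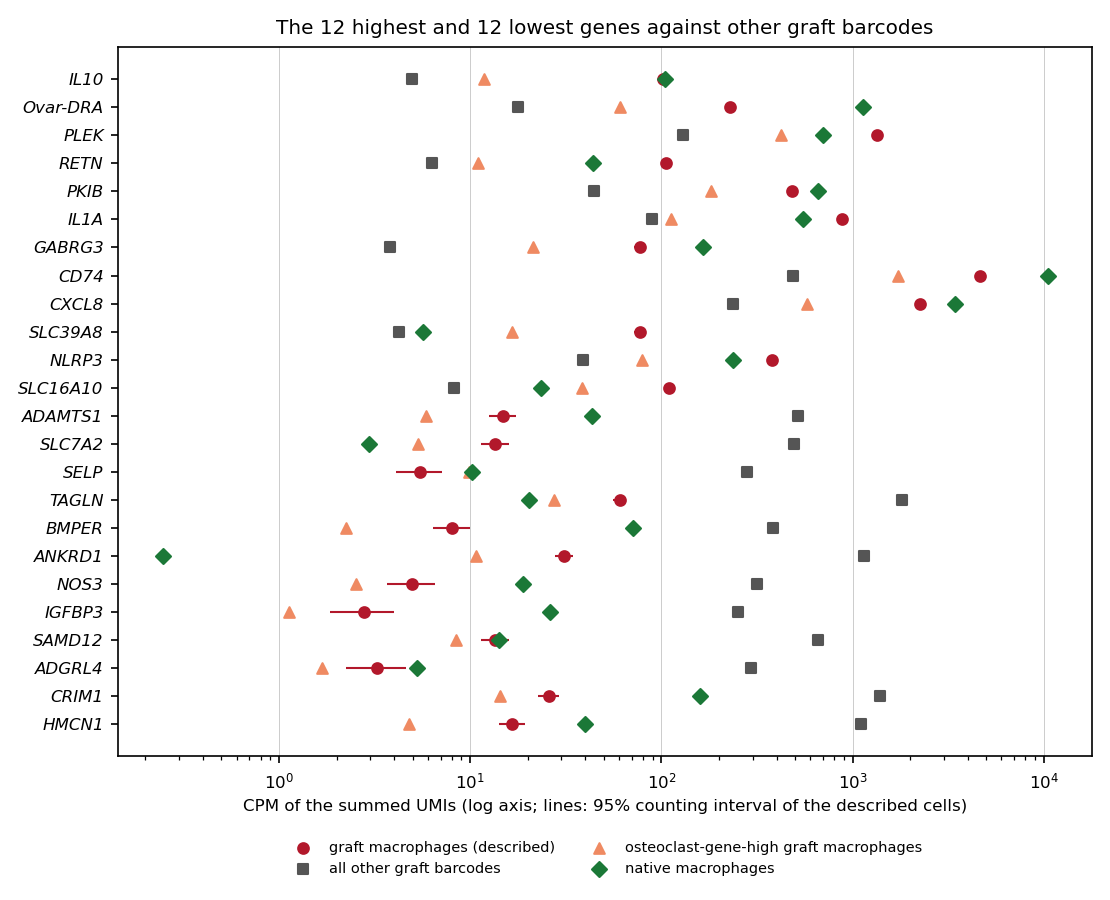
CPM of summed UMIs on a log axis for 24 genes chosen by a fixed rule of ratio, in members, other graft barcodes, graft macrophages at or above the osteoclast-gene limit, and native macrophages, with lines for the 95% counting interval of the members. IL10, IL1A and CD74 lie to the right in members and native macrophages, and HMCN1, NOS3 and TAGLN lie far to the left of the other graft barcodes.

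The nearest cells were the 58 graft macrophages on the other side of the osteoclast-gene limit. Members held less transcript of most proton pump and osteoclast genes and more of most proinflammatory genes and of some class II and resident macrophage genes. The limit split these sets by measured values, so nothing is read from the counts: 307 of 4134 genes were over 2-fold higher in members (7.43%) and 158 were lower (3.82%). The 58 barcodes were deeper (median 47175.5 against 27902 UMIs), and their sums were dominated by few cells, with osteoclast genes from 2014 through a median of 3409 to 98430 CPM.

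SPP1, the matrix phosphoprotein osteopontin that osteoclasts bind through integrin beta 3, differed most among the abundant genes. Members had 467 CPM, with a barcode lowest of 0, a median of 34.2 and a highest of 10270, and the 58 barcodes had 12450 CPM, with a median of 240 and a highest of 91450. The ranges of the sets overlapped, although the sums differed 26.7-fold (95% counting interval 25.9 to 27.5), a log2 ratio of -4.72 that was -3.70 with equal weight for each barcode. At 1000 UMIs, SPP1 was seen in 15.8% of members and 5.07% of graft endothelial barcodes. ATP6V0D2, the proton pump subunit of osteoclasts, had 9.13 CPM in members and 274 in the other set, and ITGB3, the integrin beta 3 chain, had 35.2 and 385 CPM.

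The vacuolar ATPase list had 13 of 16 subunits over 2-fold lower in members and none higher, with a median log2 ratio of -1.51 (all genes 0.06, 1.83% lower). ATP6V1E1 had 600 CPM in members and 1553 CPM in the osteoclast-gene-high barcodes, and ATP6V1F had 293 and 801 CPM. Osteoclast genes outside the rule were lower in 11 of 15, with a median of -2.07. The typical barcodes differed by less than the sums. This list came to 1046 and 5362 CPM over summed UMIs, with barcode medians of 868 and 1620 CPM. The vacuolar ATPase list came to 2896 and 7706 CPM, with barcode medians of 2393 and 4674 CPM. CKB, the creatine kinase that osteoclasts use for energy, had 446 and 3055 CPM, and NFATC1, the transcription factor that drives osteoclast formation, had 52.5 and 167 CPM. In native macrophages CKB had 423 CPM and NFATC1 31.3, close to the members for CKB. TNFRSF11A, the RANKL receptor, was looked at after its values were seen and had 43.9 CPM in members, 59.3 in the other set and 47.9 in native macrophages.

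The remaining genes of lowest ratio were PHETA1, DGKI, MATK, MYO1D and ITGA2, of which the integrin alpha 2 chain ITGA2 had 2.78 and 74.2 CPM. DGKI rested on 8 of the 58 barcodes. Lysosomal hydrolases were lower in 4 of 19 and lipid-handling genes in 4 of 20, with 1 of the latter higher. CSTB, a cathepsin inhibitor, had 2605 and 7949 CPM, while FABP5, a fatty acid carrier, did not pass 2-fold, at 1286 and 2344 CPM.

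Genes higher in members were led by cytokines. IL1A had 885 and 112 CPM, a 7.91-fold ratio (95% counting interval 7.15 to 8.76), and IL1B, a secreted interleukin, had 336 and 51.7 CPM, a 6.49-fold ratio (5.59 to 7.56). CXCL10, an interferon-induced lymphocyte attractant, had 66.8 and 0.281 CPM, with 98.2% of the member UMIs in the top 10% of members and 1 UMI in the other set. Its neighbour in function CXCL11 had 50.5 and 3.37 CPM in 17 members. The rest were RETN, IL10, PPP1R16B (71.8 and 3.09 CPM) and BACH2 (64.4 and 3.94 CPM). BACH2, a lymphocyte transcription factor, had 1501 CPM in graft T cells and 312 CPM in the 15 members of low macrophage share against 58.5 in the others.

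Proinflammatory genes were over 2-fold higher in 11 of 16, against 4.38% of all genes. NFKBIA, the inhibitor of NF-kappa B, had 2293 and 1061 CPM, and TNFAIP3, which ends NF-kappa B signalling, had 992 and 428 CPM. The resident list was higher in 7 of 16, led by the mannose receptor MRC1 at 609 and 233 CPM, and the class II list in 5 of 10, with CD74 at 4656 and 1722 CPM. C1QA was 2.95-fold and CD163 3.18-fold higher in members. The phagocytic and Fc receptor list was higher in 2 of 10 and lower in 1 (all genes 4.38% higher and 1.83% lower). Its barcode median was 3093 CPM in members and 3591 CPM in the osteoclast-gene-high barcodes, so it did not set the class apart from these cells. Cell cycle genes were higher in 5 of 15, with TOP2A, which untangles DNA before division, at 212 and 78.7 CPM. The list median of 0.88 was -0.46 without the cycling members, which number 20.

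These ratios moved with the place of the limit. With the limit at 1000 CPM, the log2 ratio of IL1A against the higher set was 1.23 where it had been 2.93, IL10 was 1.05 where it had been 2.67, the median of the resident list was 0.10 where it had been 0.78, and the count of genes higher in members was 74. CXCL10 and CXCL11 then turned to -0.25 and -0.38. The median of the fibroblast list, 1.05, was -1.09 without the members high in fibroblast genes.

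Against native macrophages found by the same rule, the class held more transcript of lipid-handling, lysosomal and iron genes and less of class II and sterol synthesis genes. Of 4119 genes, 335 were over 2-fold higher in the graft class (8.13%) and 188 lower (4.56%). Tissue, animal and library cannot be told apart here, and the native macrophages were shallower, with a median of 9165 UMIs. Of the genes that chose both sets, C1QA had 5471 CPM in graft and 4601 in native macrophages, C1QB 2120 and 1575, and CSF1R 348 and 441, which the shared rule bears on.

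Lipid-handling genes differed most as a list, with 17 of 20 over 2-fold higher, none lower, and a median log2 ratio of 2.28 (all genes -0.01, with 3.80% higher). The list summed to 8855 CPM in members and 2005 CPM in native macrophages. Graft endothelial and smooth muscle barcodes also lay above the native macrophages, at 3868 and 4112 CPM, and graft T cells below, at 922 CPM. The part of a level shared by graft cells was not tested. APOE, which carries cholesterol out of macrophages, had 697 and 9.71 CPM, a 71.8-fold ratio (95% counting interval 57.5 to 90.8). The APOE log2 ratio of 5.58 was 4.25 with equal weight for each barcode and 4.12 at 1000 UMIs. By barcode, APOE had a lowest of 0, a median of 44.3 and a highest of 9456 CPM in members, and a median of 0 and a highest of 996 in native macrophages, so the ranges overlapped. Graft smooth muscle barcodes held more still, 2367 CPM, and this level in neighbouring cells of the same library moves with the result. Its part was not tested.

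SPP1 had 467 CPM in members and 0.737 in native macrophages, where 6 barcodes had a UMI. FABP5 had 1286 and 156 CPM, with barcode medians of 487 and 0 and highest values of 8495 and 2720. LPL, the lipase that frees fatty acids from lipoproteins, had 429 and 24.6 CPM. LGALS3, a galectin of activated macrophages, had 763 and 209 CPM, and OLR1, a receptor for oxidised LDL, had 255 and 51.6 CPM. GPNMB was 60.9-fold higher than in native macrophages (42.3 to 91.1) and TREM2 37.4-fold (28.4 to 50.2), at 3.56 and 6.39 CPM in the native cells. Both were seen in 0.376% of native macrophages at 1000 UMIs, against 8.25% and 10.7% of members, and in 0.922% of graft endothelial barcodes.

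Lysosomal genes were higher in 11 of 19 and lower in 1, with a median of 1.05. CTSB, a cysteine protease of lysosomes, had 2128 and 809 CPM, CTSZ had 1737 and 492 CPM, and PSAP, the precursor of sphingolipid activators, had 1943 and 856 CPM. CTSD, a lysosomal aspartyl protease outside the naming rule and chosen after its values were seen, had 1190 and 85.0 CPM. The exception was CST3, a secreted inhibitor of cathepsins, at 1234 CPM in members and 8145 CPM in native macrophages, with medians of 651 and 5882 by barcode. The rest of the native library held 2086 CPM of CST3.

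Iron and haem genes were higher in 6 of 11. FTH1, the ferritin heavy chain that stores iron, had 26790 and 7132 CPM, with a median by barcode of 17180 in members and 6657 in native macrophages and highest values of 116400 and 58430. BLVRB, which degrades biliverdin, had 241 and 42.6 CPM, and SLC40A1, the iron exporter ferroportin, had 250 and 122 CPM. HMOX1, the haem oxygenase, differed by less than counting error, at 385 and 390 CPM (ratio interval 0.967 to 1.06).

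Osteoclast genes outside the rule were higher than in native macrophages in 6 of 14 and proton pump subunits in 5 of 16, with none lower in either list. MMP14, a membrane metalloproteinase, had 229 and 39.5 CPM. Of the choosing genes, ACP5 had 254 and 77.2 CPM, CTSK 531 and 125 CPM, and MMP9, a gelatinase at 0 UMIs in native macrophages, 51.9 CPM, at least 141-fold higher against a floor of 3 UMIs over the native set. The same limit applied to both tissues and was reached by 58 graft but only 2 native barcodes.

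Leaving out genes whose graft level was below 1/4 of that in the rest of the graft library, which removes SPP1 (log2 ratio 6.36), the 8 genes of largest excess over native macrophages were APOE, GPNMB, FABP4, S100A12, MMP12, S100A8, MCOLN3 and PDPN. MMP12, the macrophage elastase, had 155 CPM in 77 members and 1 UMI in native macrophages. S100A12, a calgranulin of monocytes and neutrophils, had 498 and 7.99 CPM, a 62.4-fold ratio (48.9 to 80.9) whose log2 value of 5.28 was 4.48 with equal weight for each barcode, and S100A8, a second calgranulin, had 298 and 5.28 CPM. S100A12 was seen in 79 members, whose top 10% held 93.7% of its UMIs, and at 1000 UMIs in 9.62% of members, 3.23% of graft endothelial barcodes and 0.376% of native macrophages. FABP4, a fatty acid carrier of fat cells and lipid-laden macrophages, had 209 CPM from 26 members and 1 UMI in native macrophages, and its log2 ratio was 5.38, or 3.33 without the 5% of members with the most UMIs. MCOLN3, a lysosomal calcium channel, was seen in 116 members at 152 CPM against 0.983, and PDPN, a membrane glycoprotein, in 100 members at 130 CPM against 0.737.

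Class II genes were lower in members in 6 of 10, and none was over 2-fold higher (all genes 3.36% lower), with a median log2 ratio of -1.09. CD74 had 4656 CPM in graft and 10490 in native macrophages, a 2.25-fold ratio (2.23 to 2.28), with barcode medians of 4644 and 9246 and highest values of 21410 and 49060. Ovar-DRA had 229 and 1134 CPM, a 4.95-fold ratio (4.73 to 5.18), with barcode medians of 183 and 893. HLA-DMA, which loads peptides, had 226 and 541 CPM, and IFI30, which reduces antigen disulfides in lysosomes, went the other way at 768 and 440 CPM. Sterol synthesis genes were lower in 5 of 17 and higher in 1, with SREBF2, their transcription factor, at 60.4 and 136 CPM and CYP51A1 at 23.6 and 87.1 CPM.

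Of 16 proinflammatory genes, none was over 2-fold higher than in native macrophages and 1 was lower. These shares were near those of all genes, 3.80% higher and 3.36% lower. IL1A had 885 and 550 CPM, IL1B 336 and 403 CPM, CXCL8 2250 and 3431 CPM and NFKB1 1560 and 973 CPM. IL10 had 102 and 104 CPM and differed by less than counting error. In the resident list 5 of 16 were higher and 2 lower, with FOLR2, a folate receptor of resident macrophages, at 386 and 73.5 CPM and MRC1 at 609 and 413 CPM.

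Interferon-induced genes were higher in 2 of 16 and the repair factor list in 5 of 15, against 3.80% of all genes. IFI6, a mitochondrial and endoplasmic reticulum protein that interferon raises, had 2074 and 609 CPM. GRN, the lysosomal growth factor progranulin, had 642 CPM in graft and 237 in native macrophages, and C5AR1, the receptor for complement C5a, had 992 and 282 CPM. Among transcription factors, 2 of 23 were over 2-fold higher, MITF and MAF, against 3.80% of all genes. MITF, which drives lysosomal and osteoclast genes, had 412 CPM in members, 161 in native macrophages and 451 in the osteoclast-gene-high set, and MAF, of the resident macrophage list, had 226, 105 and 107 CPM. RUNX1, of blood cell formation, did not pass 2-fold, at 1362, 837 and 754 CPM.

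The 8 genes of largest deficit were KERA, PTGDS, CCL26, PI16, TFPI2, CHRDL1, NTRK2 and PCOLCE2. Each was higher in the rest of the native library than in native macrophages, for example PI16, a fibroblast gene, at 7.14 CPM in members, 105 in native macrophages and 312 in the rest. PTGDS, a prostaglandin D synthase, had 14.6, 232 and 904 CPM in that order. When at least 10 macrophage UMIs were required, all 8 deficits were smaller. The log2 ratio of KERA was then -2.74 where it had been -4.19, PI16 -2.56 where it had been -3.18, and PCOLCE2 -1.92 where it had been -2.91. The fibroblast list median was -1.13 where it had been -1.94, and 157 genes were lower where 188 had been. The part of transcript from other native cells in these deficits was not tested.

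**Figure D4:**
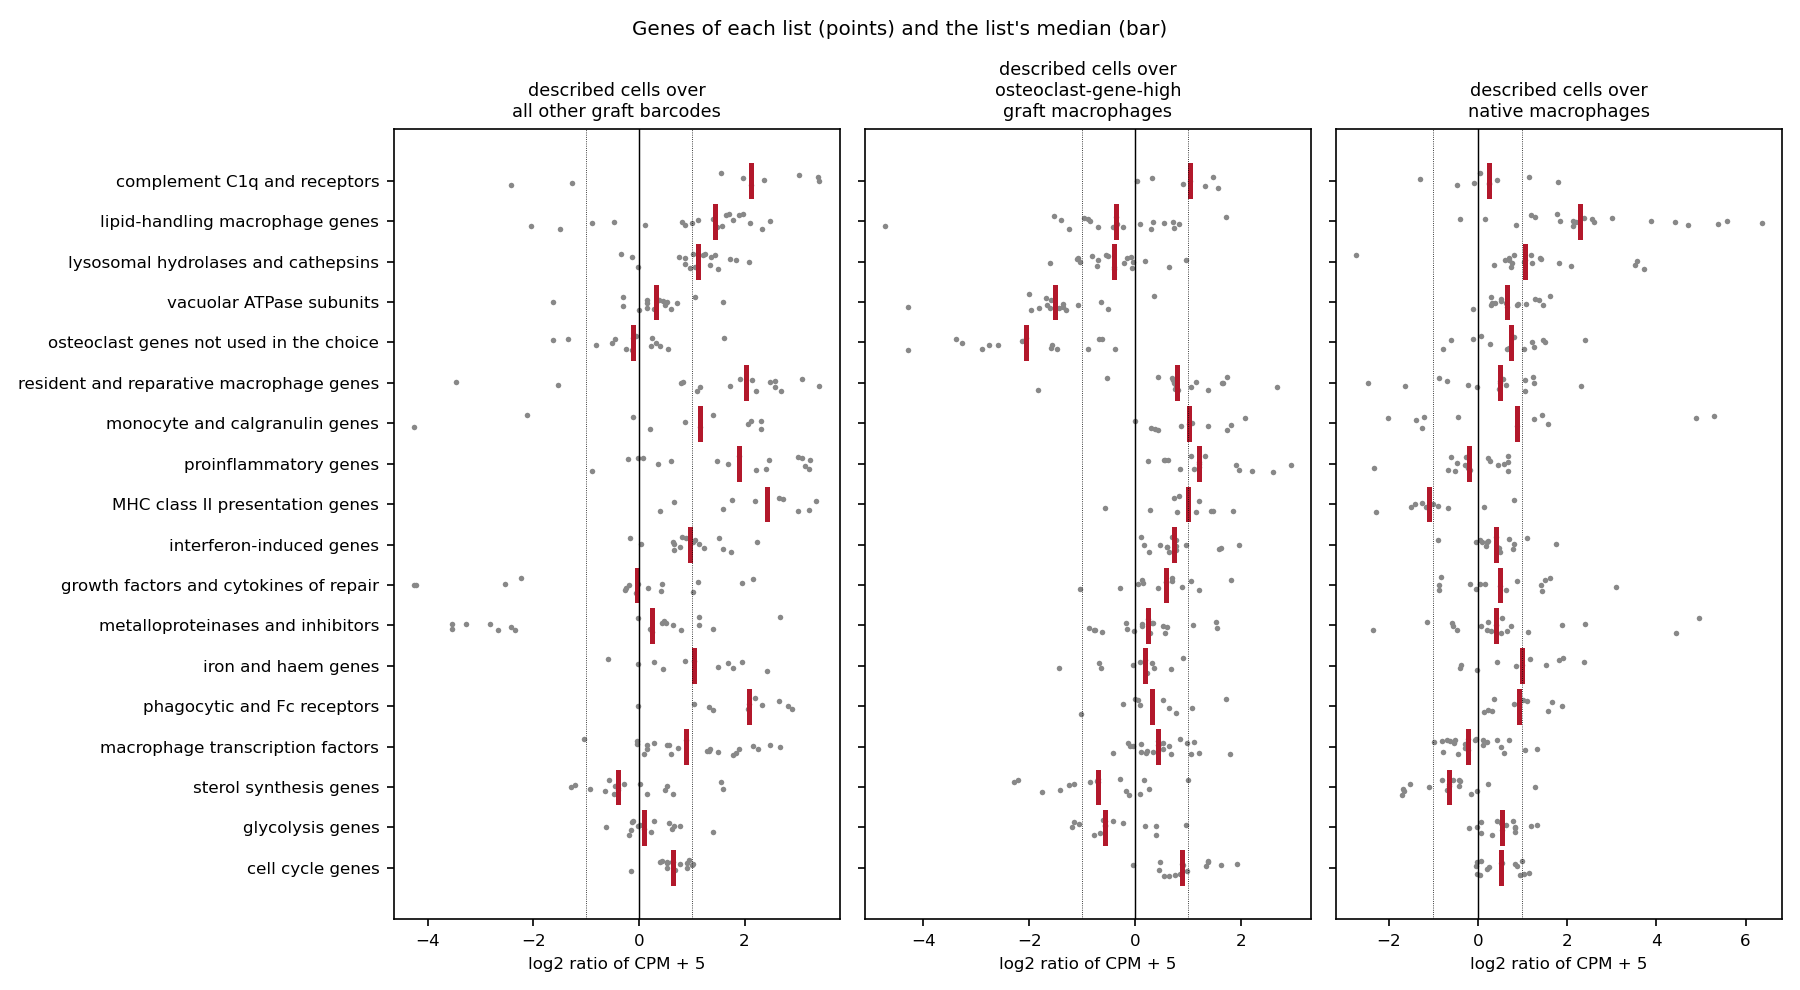
Log2 ratio of CPM with 5 added for each measured gene of the lists (points) and the list median (bar), for members against other graft barcodes, osteoclast-gene-high graft macrophages and native macrophages, with 0 meaning equal. The lipid-handling median lies at 1.44, -0.36 and 2.28, the class II median at 2.42, 0.99 and -1.09, and the proton pump median at 0.33, -1.51 and 0.65. Against endothelial, smooth muscle and T cell barcodes alone, the proton pump median was 1.36.

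Members differed among themselves. Of the 10 genes that varied most beyond their mean at 1000 UMIs, 5 had no symbol and the others were MMP13, FTH1, COL1A2, MGP and COL3A1. MMP13, a collagenase, owed its 105 CPM mainly to 1 barcode at 40000 CPM. COL1A2 and COL3A1, fibrillar collagen chains, and MGP, an inhibitor of calcification, belonged to the 26 members with at least 10 collagen UMIs at equal depth, whose median was 47.5 UMIs of MGP against 0 in the rest.

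For the rest of this account, the 267 members with at least 10000 UMIs were thinned to that number. Ranges were set on small groups of genes, and they are ranges and not types of cell. At least 5 UMIs of the resident genes MRC1 and FOLR2 were found in 173 members (64.8%), of IL1A and IL1B in 137 (51.3%), of GPNMB and TREM2 in 76 (28.5%) and of the calgranulins S100A8 and S100A12 in 34 (12.7%). Of these 4 ranges the calgranulins were the most sharply divided, with 201 members at 0, 3 just below the limit and 1 just at it. GPNMB and TREM2 were graded, with 31 members just below the limit and 28 just at or above it. FN1, S100A4, SLC7A11, LGMN and CCL2 are described below after their values were seen.

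The calgranulin members had less C1QA than the rest at the median, with values from 0 to 163 UMIs. Their median was 12.5 UMIs of C1QA against 69 in the rest, 28 against 54 of CD74, and 0 against 3 of FOLR2. They had medians of 55 against 7 UMIs of S100A4, a calcium-binding protein of motile cells, 24 against 3 of FN1, which encodes fibronectin, and 355 against 159 of FTH1. SLC7A11, the cystine importer that feeds glutathione synthesis, had a median of 4 against 0, and LGMN, a lysosomal protease, 8.5 against 1. Ferroportin, SLC40A1, had a mean of 0.235 against 3.57 UMIs, and IL10 a mean of 0.0882 against 1.49. These members were also deeper before thinning (median 50702 against 27960 UMIs). MRC1 and CD163 did not follow FOLR2. Over the 267 members, Spearman's rank correlation of S100A8 was -0.28 with FOLR2, but -0.06 with MRC1 and -0.08 with CD163. Of the 34 calgranulin members, 19 also passed the limit for MRC1 and FOLR2, against 154 of the other 233, so these ranges overlapped.

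The members with GPNMB and TREM2 shared part of this pattern. They had medians of 72 against 5 UMIs of S100A4, 28 against 2 of FN1, 314 against 145 of FTH1, 6 against 0 of APOE and 37.5 against 73 of C1QA. Of the 34 calgranulin members 17 were among them, against 59 of the other 233. Before thinning they had a median of 44933.5 against 25992 UMIs.

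For S100A4, FN1, CD74 and C1QA, the members with MRC1 and FOLR2 lay at the other end. Their medians were 4 against 74.5 UMIs of S100A4, 2 against 27 of FN1, 66 against 21 of CD74 and 87 against 9.5 of C1QA. Of the 76 members with GPNMB and TREM2, 39 also passed the resident limit, against 134 of the other 191, so the ranges overlapped. The members with IL1A and IL1B had 33 against 8.5 UMIs of CXCL8, 64 against 32 of CD74 and 83 against 47.5 of C1QA.

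Smaller ranges were set on few members. FABP4 reached 5 UMIs in 8 members, of which 6 were calgranulin members, with medians of 48.5 against 4 UMIs of FABP5, 7 against 0 of MMP12 and 25.5 against 0 of CCL2, the chemokine that attracts monocytes. The 8 had a median of 95904.5 UMIs before thinning against 29308 in the rest. The chemokines CXCL10 and CXCL11 reached 5 UMIs in 13 members, which had medians of 92 against 50 UMIs of CD74 and 0 against 3 of IL1A. TOP2A and CENPF, genes of dividing cells, reached 5 UMIs in 20 members, which had medians of 86 against 11 UMIs of S100A4 and 12.5 against 66 of C1QA and a depth of 56822.5 against 29254 UMIs.

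Across the 267 members at equal depth, Spearman's rank correlation was 0.80 between CD74 and Ovar-DRA, 0.73 between S100A8 and S100A12, 0.69 between FN1 and S100A4, 0.63 between IL1A and IL1B and 0.62 between MRC1 and CD163. It was -0.63 between SLC40A1 and S100A4, and -0.58 both for MRC1 and for CD74 with S100A4. The barcodes come from 1 library, so these values describe it and carry no test. In summed UMIs, S100A4 had 6470 CPM in members, 10850 in osteoclast-gene-high graft macrophages and 1094 in native macrophages. FN1 had 2424, 1671 and 272 CPM in the same order, and 8574 CPM in graft endothelial barcodes.

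**Figure D5:**
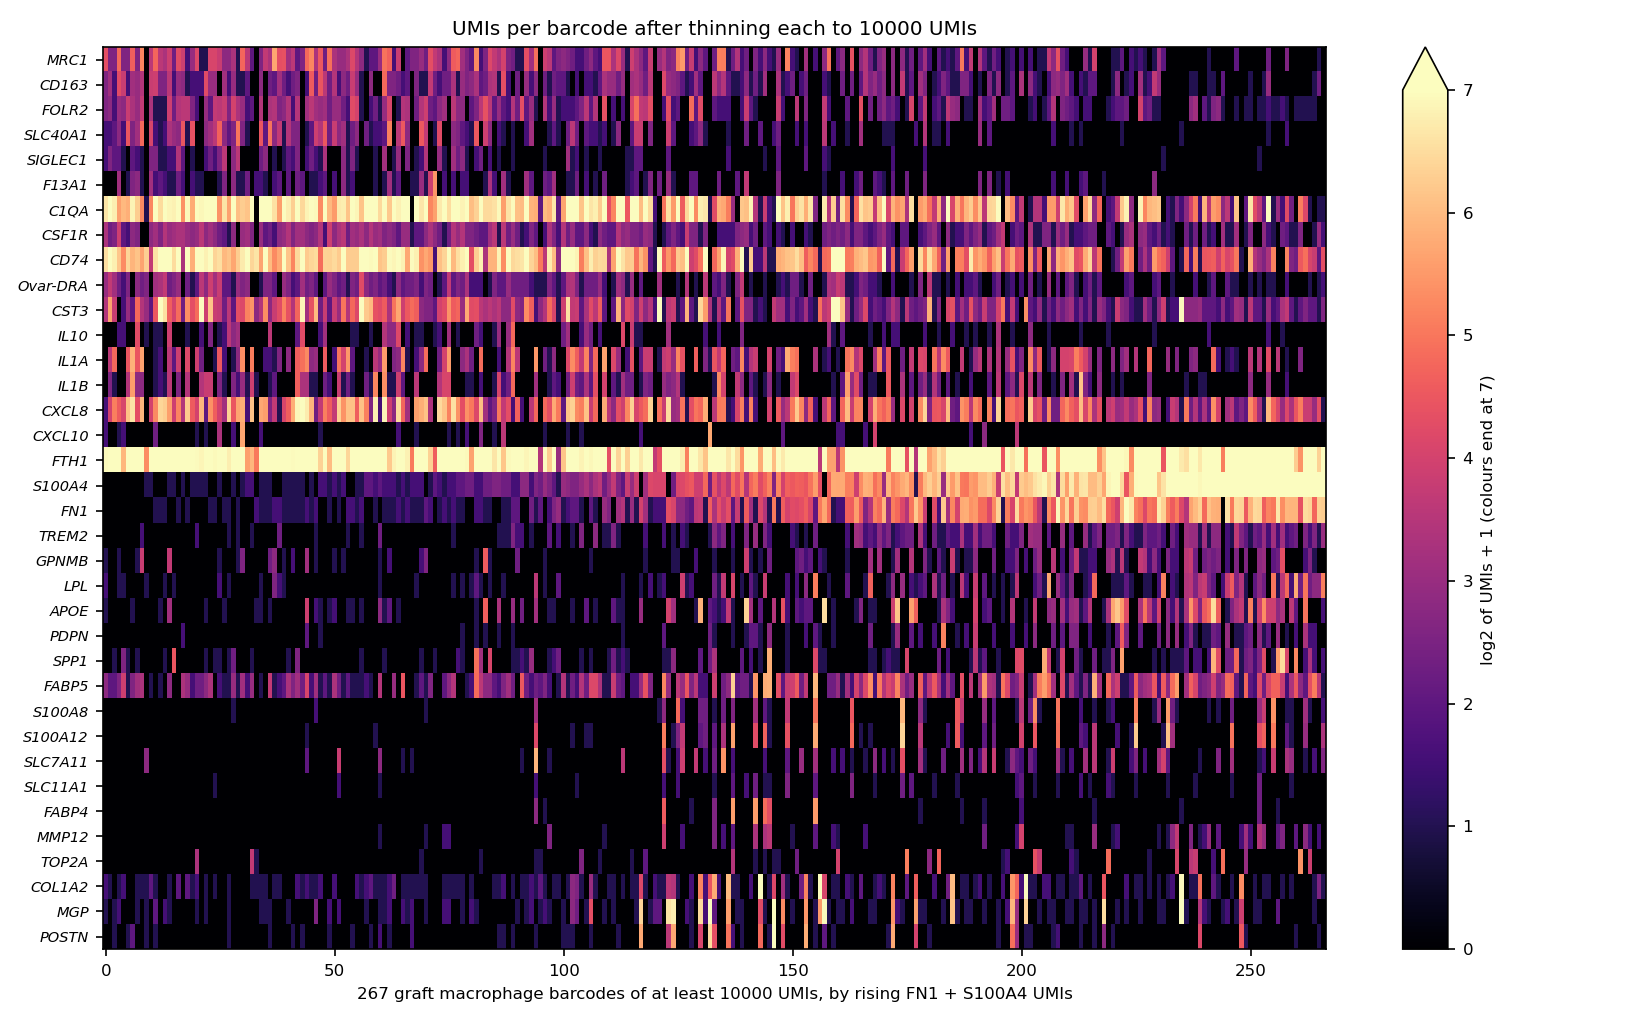
Log2 of UMIs plus 1 of selected genes (vertical axis) in the 267 members at 10000 UMIs (horizontal axis), ordered by rising FN1 plus S100A4. C1QA, CD74 and MRC1 fade from left to right, while TREM2, GPNMB and the calgranulins appear mainly towards the right and FTH1 runs past the end of the colour scale in most members. Spearman's correlation with S100A4 was -0.54 for C1QA and -0.58 for CD74 and MRC1.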

How the data were processed

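Single-cell UMI counts of 2 libraries were used as deposited, with Cell Ranger 7.2.0 per the file headers. Seurat 5.0.0, R 4.3.3 and bcl2fastq 2.20.0.422 are listed in the submitters' processing notes without a role, and the genome build is not given in the sources used here. Members and gene lists were chosen with earlier results of these data known. UMIs were summed over each set of barcodes and scaled to CPM, with exact Poisson intervals, and ratios had exact conditional binomial 95% intervals, which cover counting error only. Comparisons used the log2 ratio of CPM plus 5, with 50 CPM and 30 UMIs in the higher set, or 10 UMIs over both sets for genes of a list. With 1 library per tissue no test was run. Text names the 12 highest and 12 lowest ratios against other graft barcodes, the 8 of each against the other sets (against native without genes under 1/4 of the level in the rest of the higher set's library), the 10 most variable genes and up to 6 most abundant genes of each list; other names were chosen after their values were seen. Lists covered 29 groups. Mitochondrial share used 13 genes. No doublet caller was run, so barcodes that hold more than 1 cell may remain. Genes without a symbol (6435 of 21890) held 17.7% of member UMIs. The ratio script was checked on simulated data. Python 3.11.15, numpy 2.4.6, pandas 2.3.3 and scipy 1.17.1 were used.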

Additional observations from a re-analysis of the deposited data

How the results depend on the processing

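The number of members was 251 when 5 times each other list was required, 202 with an osteoclast-gene limit of 1000 CPM and 329 with 4000. Against osteoclast-gene-high macrophages, the limit of 1000 gave 74 genes higher and 91 lower, the limit of 4000 gave 769 and 289, and a minimum of 10 CPM gave 563 and 247. Barcodes thinned to 1000 UMIs gave 32 lower in that comparison, 502 higher than other graft barcodes and 309 lower than native macrophages. The minimum of 10 CPM gave 1365 lower than other graft barcodes, and 540 higher and 462 lower than native macrophages. Under the limit of 1000, the log2 ratios of CXCL10 (-0.25), CXCL11 (-0.38) and the smooth muscle list median (-0.10) against osteoclast-gene-high macrophages turned sign, as did the fibroblast list median (-1.09) without members high in fibroblast genes; the cause was not tested. Leaving out members chosen after seeing the data (high in fibroblast genes, low in macrophage genes, cycling, or the 5% with the most UMIs) kept every count of genes within 1.5 times. Thinning brought PLEK from 3.31 to 1.69 and CXCL8 from 3.22 to 1.83 against other graft barcodes, and turned the sterol synthesis median against osteoclast-gene-high macrophages from -0.70 to 0.39. Without cycling members the cell cycle median was -0.56, -0.46 and -0.82 against the other graft barcodes, osteoclast-gene-high and native macrophages. At the depth of the osteoclast-gene-high set, 3 UMIs over the set come to 0.844 CPM. No paired analysis was possible because each tissue has 1 library.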
